A study of Homo sapiens with 6 samples.

Results

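The genes described here encode subunits of the receptors for GABA and glycine, the enzymes that make and break down GABA, the transporter that loads both transmitters into vesicles and the scaffold that anchors their receptors. They were measured in SH-SY5Y cells, a subclone of a human neuroblastoma line with sympathetic neuron-like features, on 1-colour Affymetrix expression arrays. The endosulfan group held 3 arrays of cells given 3 µM of this organochlorine insecticide for 24 h, and the control group held 3 arrays of cells described in the labels as exposed to control, with no vehicle named. Cells of both groups grew in serum-containing MEM and F12 medium. The labels call the replicates biological but name no culture or day, so p-values measure only the spread between these arrays, whose number limits the precision. Members were 27 genes chosen by name, and all probe sets annotated with exactly 1 gene, that gene being among the 27, were taken. This gave 62 of the 49293 probe sets tested, with at least 1 for each of the 27 genes and several for 21 of them. Another probe set, annotated with GABBR1 and a second gene, was left out, and other subunits of these families were not analysed here.

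GABA type A receptors are pentameric chloride channels that open when GABA binds, and they are usually built from alpha, beta and a further kind of subunit. Glycine receptors are closely related chloride channels of alpha and beta subunits. GABA type B receptors are instead G protein-coupled heterodimers. Endosulfan is a cyclodiene insecticide known to block the pore of GABA-gated chloride channels, which makes these genes the family of its target. The comparison of exposed with control cells asks whether transcripts of that family differ after exposure.

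The arrays carried the features of the labelled line. All 12 markers of sympathoadrenal neuroblasts, among them HAND2, GATA2, DBH and STMN2, lay above the median level, between 7.54 and 13.19 on the log2 scale. Of 10 measured markers of other cell types 4 did so too, namely PECAM1, VWF, SOX10 and GFAP, at no more than 6.64, while the epithelial and haematopoietic markers lay below it, and none of these 22 genes passed the test between the groups. Some markers of the line nevertheless differed by more than any member: ISL1, STMN2 and ELAVL4, named here after their values were seen, averaged 8.68, 11.23 and 9.65 in endosulfan arrays, against 10.02, 12.29 and 10.75 in control arrays, each with a limma adjusted p of 0.215. The arrays' own poly-A spike-ins, bacterial transcripts added to the RNA before labelling, were at 7.81, 7.73 and 8.80 in endosulfan arrays 1 to 3, against 6.13, 7.73 and 5.84 in control arrays 1 to 3. Control 2 therefore stood level with endosulfan 1 and 2 on this measure, and each difference between the groups below is to be read beside it. On the hybridisation controls, added after labelling, control 2 was lower than both, at 10.38 against 10.62 and 10.56. A measure of RNA quality also moved with the groups: for GAPDH, the log2 signal at the 3′ end minus that at the 5′ end was 0.887, 0.818 and 0.819 in endosulfan arrays 1 to 3, against 0.807, 0.743 and 0.696 in control arrays 1 to 3, without overlap. Its part in the differences below was not tested. Between arrays, Pearson's r over the probe sets was 0.964 to 0.995, a description across features that are no replicates.

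Few of these genes were bright. A level here is the mean of the log2 RMA values of a probe set over the 6 arrays, and the median level over all 49293 probe sets was 4.92. Of the 62 member probe sets 10 lay above it, or 16.1%, and these came from 7 of the 27 genes, or 25.9%. Over the whole array, 64.4% of genes had at least 1 probe set above the median. The 7 genes were the type A subunits GABRA3, GABRD, GABRE and GABRQ, the type B subunit GABBR1, the GABA-degrading enzyme ABAT and the scaffold GPHN. Among the 20 genes of channel subunits, 4 of the 16 GABA-gated subunits and none of the 4 glycine receptor subunits reached the median.

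A level above the median is not a call of expression. Probe sets that match no genomic sequence, carried by the array to measure background, were at 2.20 for probes with 3 G or C bases, at 4.72 for probes with 17, at 5.33 for probes with 18 and at 10.42 for probes with 25. The median level thus equals the background of probes of moderately high GC content. Brightness also depends on each probe's own affinity, so levels of different genes are set against this shared line alone and are not ranked against each other.

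The alpha subunits, which with beta subunits form the GABA binding site, were mostly dim. GABRA3 lay at the line, with 5.05, 4.76 and 4.94 in endosulfan arrays 1 to 3, against 4.99, 4.86 and 4.98 in control arrays 1 to 3, and its second probe set was at 3.10. The groups overlapped. GABRA2, GABRA4, GABRA5 and GABRA6 had 8 probe sets from a level of 2.56 upward, all below the median. The brightest was that of GABRA5, at 3.97, 3.97 and 4.27 in endosulfan arrays and 3.84, 3.91 and 4.04 in control arrays.

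Of the beta subunits, which assembled type A receptors generally require, GABRB1 was at 2.59 and 2.76 on its probe sets. GABRB2 had 5 probe sets from 2.59 to 4.90, and the brightest stood just below the median, at 4.92, 5.09 and 4.99 in endosulfan arrays 1 to 3, against 4.70, 4.82 and 4.90 in control arrays 1 to 3. Its endosulfan arrays all lay above its control arrays, although its probe set ranked 4 in brightness lay the other way, at 3.45 to 3.51 in endosulfan arrays and 3.57 to 3.71 in control arrays. The gamma subunits GABRG1 and GABRG3, the class that links type A receptors to synapses, had levels between 2.87 and 3.54.

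GABRD, the delta subunit of extrasynaptic type A receptors, lay above the median in all 6 arrays. Its 1 probe set read 6.55, 6.35 and 6.44 in endosulfan arrays 1 to 3, against 5.62, 6.27 and 5.75 in control arrays 1 to 3. All endosulfan arrays lay above all control arrays, by the narrow gap between endosulfan 2 and control 2. The epsilon subunit GABRE read 5.12, 5.01 and 5.16 in endosulfan arrays, against 4.95, 5.11 and 5.04 in control arrays on its brightest probe set, and its other probe sets were at 3.91 and 2.81. The theta subunit GABRQ lay at the line, at 4.90, 4.93 and 5.08 in endosulfan arrays, against 4.89, 4.85 and 4.87 in control arrays. The pi subunit GABRP was at 4.16 and 2.61, and the 7 probe sets of GABRR1, GABRR2 and GABRR3 lay between 2.72 and 3.97.

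The members nearest the line were GABRQ at 4.92 and GABRA3 at 4.93 inside it, and GABRB2 at 4.90 and GABBR2 at 4.89 outside it. Only ABAT, GABRD, GABRE, GABBR1 and GPHN exceeded each array's own median in all 6 arrays. Against the median of each gene's brightest probe set, 5.81, the genes above were 3, namely GABRD, GABBR1 and ABAT, and against the upper quartile of all probe sets, 6.66, ABAT alone was above. In the RefSeq gene table GABRA3 and GABRQ have no protein-coding gene between them and GABRE is separated from GABRA3 by 2, so 3 of the 4 type A subunits above the median are neighbours. GABRG1, GABRA2, GABRA4 and GABRB1, which also lie next to each other but for 1 gene, had 9 probe sets at or below a level of 3.35. The adjacent pairs GABRB2 and GABRA6, GABRA5 and GABRG3, and GABRR1 and GABRR2 had no probe set above the median, that of GABRB2 at 4.90 being the nearest to it.

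**Figure D1:**
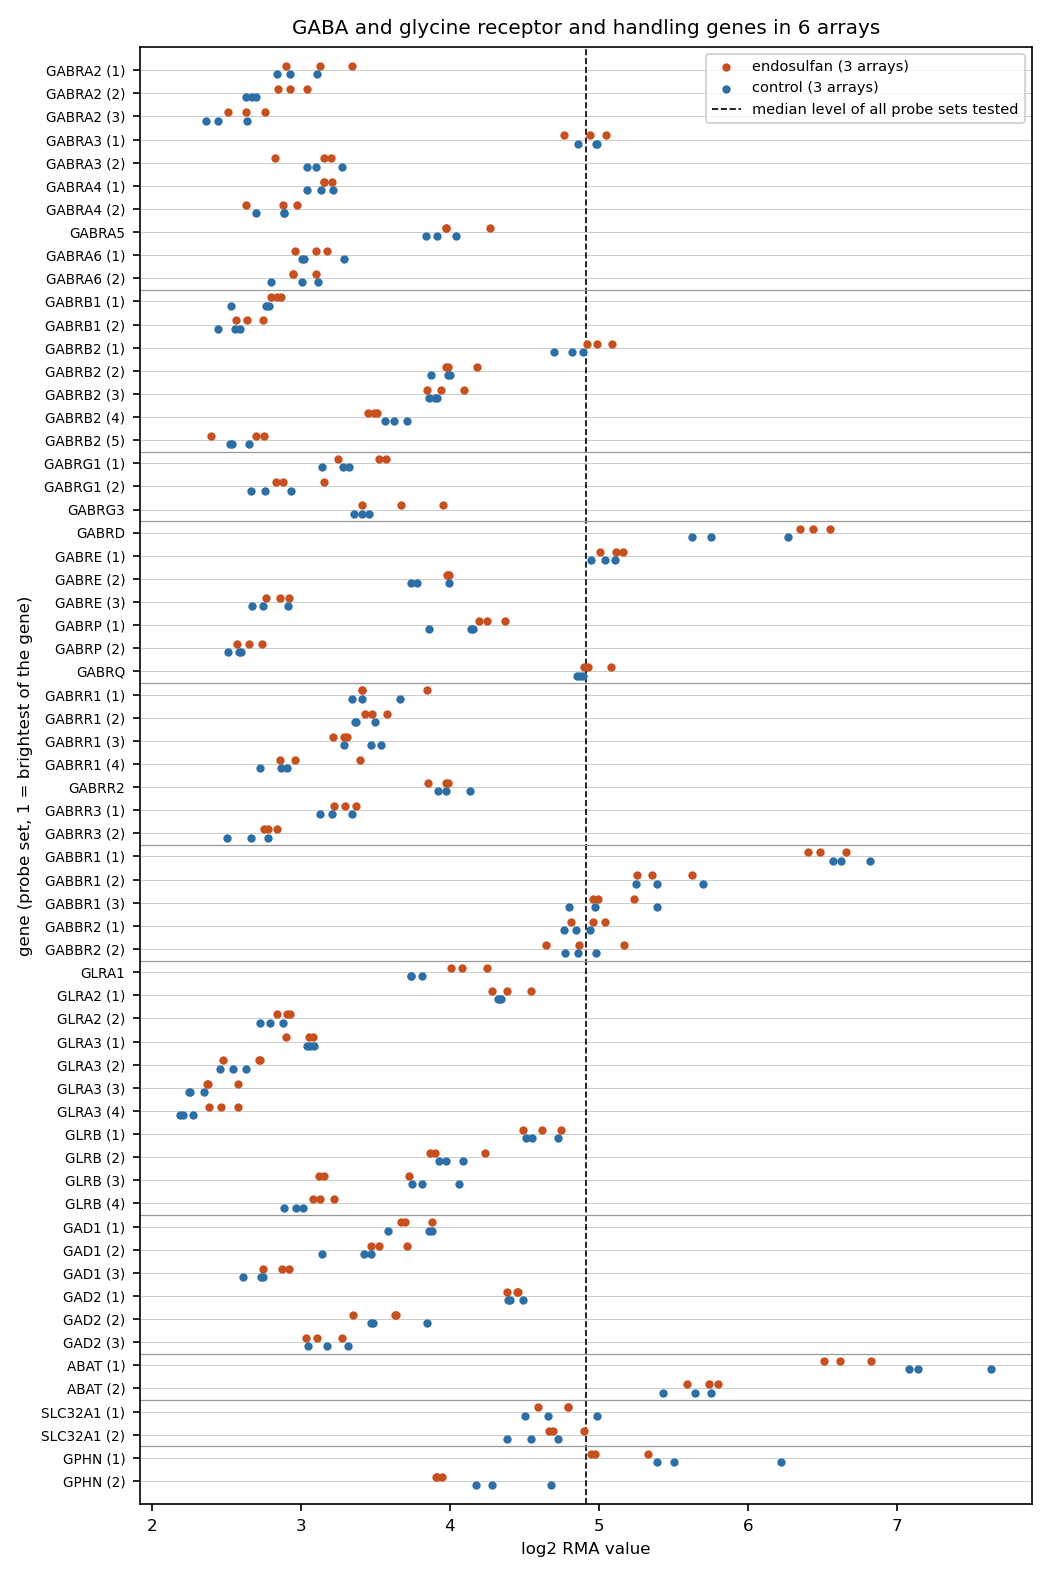
Log2 RMA value of each of the 62 member probe sets (rows, grouped by role, numbered from the brightest of each gene) in the 3 endosulfan arrays (orange, upper points) and the 3 control arrays (blue, lower points). The dashed line is the median level of all probe sets, 4.92, and most rows lie to its left.

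The type B receptor lay above the median for 1 of its 2 subunits. GABBR1, which binds GABA, had 3 probe sets above the line, and the brightest read 6.66, 6.49 and 6.41 in endosulfan arrays 1 to 3, against 6.62, 6.57 and 6.82 in control arrays 1 to 3. GABBR2, which couples the heterodimer to G proteins, was at 4.89 and 4.88. Among the glycine receptor subunits, GLRA1 read 4.25, 4.01 and 4.08 in endosulfan arrays, against 3.81, 3.74 and 3.74 in control arrays. GLRA2, GLRA3 and the beta subunit GLRB, which binds gephyrin, were at most at 4.37, 3.04 and 4.61 on their brightest probe sets.

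Genes that synthesise and package GABA were dim and a gene that degrades it was not. GAD1 and GAD2, the glutamate decarboxylases that make GABA, had 6 probe sets between 2.77 and 4.43. SLC32A1, the vesicular transporter of GABA and glycine, was at 4.72 and 4.65. ABAT, the mitochondrial transaminase that breaks GABA down and is widely expressed outside neurons, stood well above the line on its brighter probe set, at the 78.2 percentile of all probe sets. GPHN, the scaffold protein gephyrin that clusters inhibitory receptors and also completes the molybdenum cofactor in all tissues, was at 5.39 and 4.15.

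No member passed the test between endosulfan and control arrays. With limma and Benjamini-Hochberg adjustment over all 49293 probe sets, 0 of the 62 had an adjusted p below 0.05, against 0.00811% of all probe sets, and the lowest adjusted p was 0.215, for ABAT. At an unadjusted p below 0.05 limma gave 8 members, of which 4 were higher, or 6.45%, against 6.30% of all probe sets, and 4 lower, or 6.45%, against 9.21% of all probe sets. Both shares were close to or below those of the array as a whole. The groups did not overlap, with endosulfan higher, in 12 member probe sets, or 19.4%, against 11.5% of all, and with endosulfan lower in 5, or 8.06%, against 9.24% of all. Without endosulfan replicate 2 the non-overlapping members were 29 in place of 17, or 46.8%, beside 43.2% of all probe sets in that setting. Without endosulfan replicate 1 or 3 the members at an unadjusted p below 0.05 were 5, or 8.06%, beside 9.40% and 8.86% of all probe sets.

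The log2 fold changes of the 62 probe sets ran from -0.64 to 0.57 with a median of 0.08, beside 0.05 over all probe sets tested. There were 46 members on the higher and 16 on the lower side, so 74.2% were on the higher side, beside 60.1% of all probe sets. The higher share came from the dim members: 41 of the 52 not above the median level were on the higher side, or 78.8%, beside 63.7% of all probe sets at such levels, and 5 of the 10 above it were on that side, beside 56.6% of all at such levels. RMA compresses differences between dim values, which limits what these arrays can show for most subunits. The 95% interval of the difference lay within 1.5-fold in both directions for 54 of the 62 members, or 87.1%. For the probe sets of channel subunits it did so in 40 of 45, or 88.9%. The share was 70.0% over all probe sets and 85.3% over those not above the median level, where most members lay. In 9 of the 21 genes with several probe sets, these had log2 fold changes of opposite sign.

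**Figure D2:**
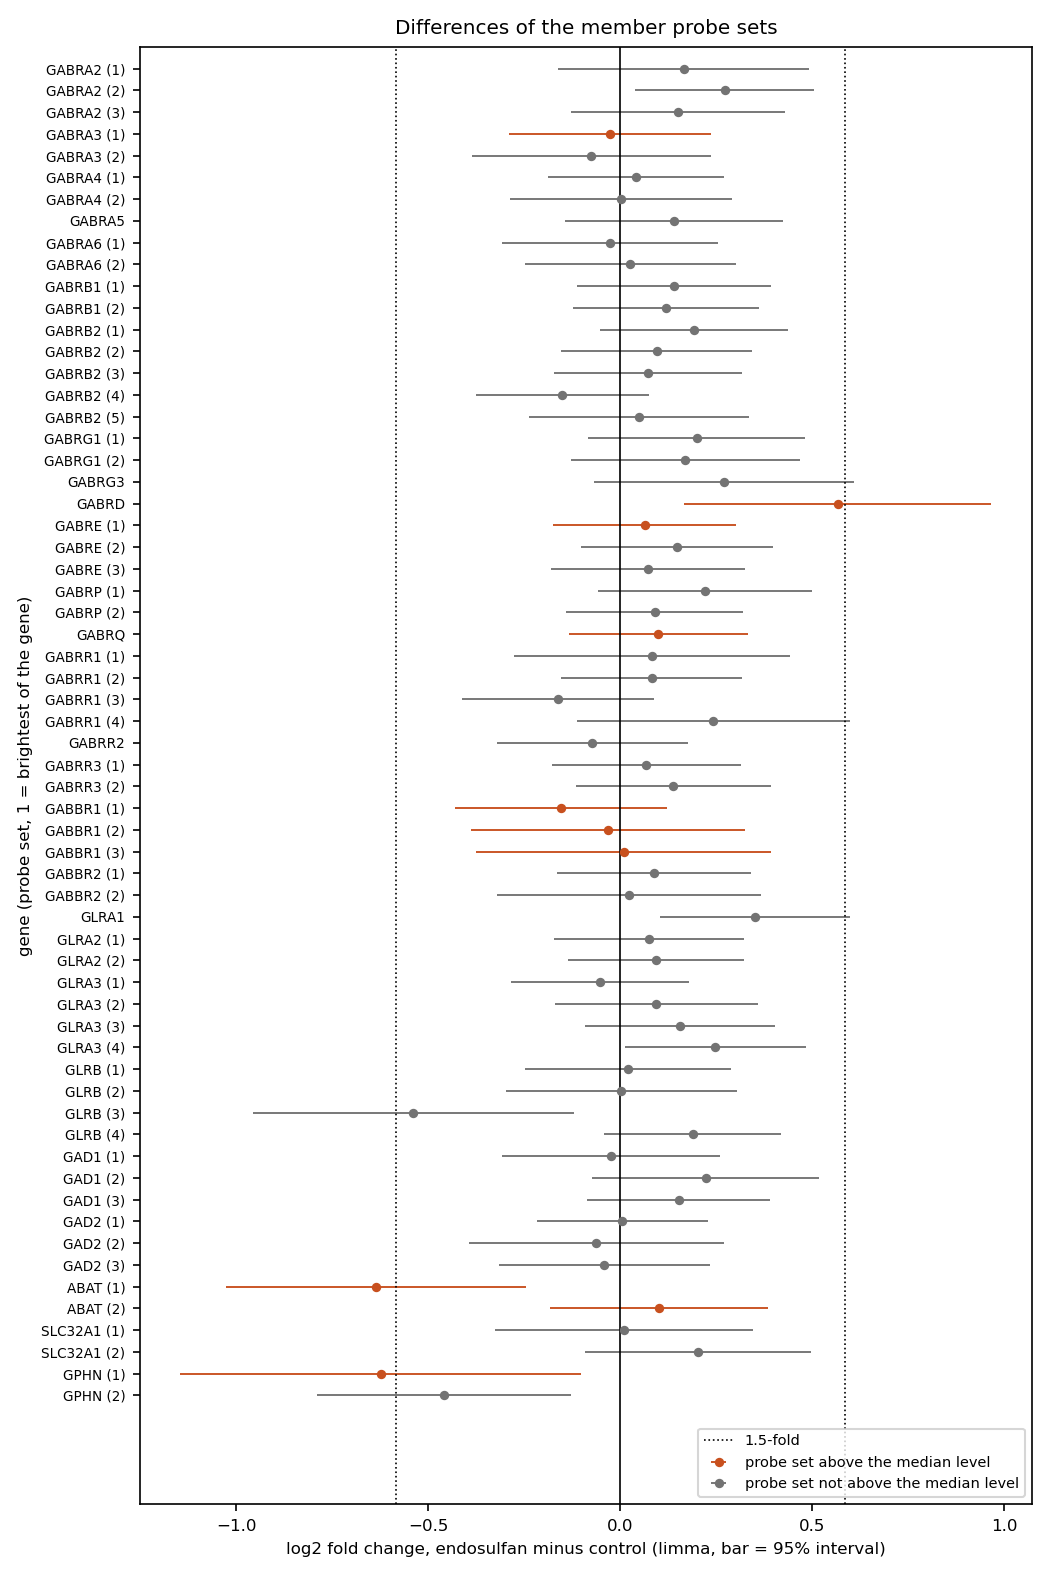
Log2 fold change of each member probe set, endosulfan minus control, from the limma fit, with its 95% interval. Orange marks probe sets above the median level and grey the others. Dotted lines mark 1.5-fold. The intervals of 8 of the 62 cross a dotted line, among them those of GABRD, ABAT and GPHN.

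GABRD was the channel subunit above the median whose groups stood farthest apart in the fit to all 6 arrays. Its mean was 6.45 ± 0.10 in endosulfan and 5.88 ± 0.34 in control arrays (log2, SD, n = 3 each). The log2 fold change was 0.57 ± 0.17 (SE), a 1.48-fold difference with a 95% interval from 0.17 to 0.97 on the log2 scale and a limma adjusted p of 0.233. In the arrays whose spike-ins were level it read 6.55 and 6.35 (endosulfan 1 and 2), against 6.27 (control 2). When the spike-ins entered the fit as a covariate, the log2 fold change of GABRD was 0.20, and with 1 array left out it ran from 0.44 to 0.76. In the limma fit with the covariate, which differed between the groups, 0 members had an unadjusted p below 0.05, beside 2.03% of all probe sets. The estimates of that fit, here and below, are therefore imprecise and only describe the values.

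The glycine receptor gave values in both directions. GLRA1, the alpha subunit of adult spinal receptors, averaged 4.11 ± 0.12 in endosulfan and 3.76 ± 0.04 in control arrays (log2, SD, n = 3 each), with a log2 fold change of 0.35 ± 0.11 (SE) and a limma adjusted p of 0.230. The groups did not overlap, and the fit with the spike-in covariate gave 0.38. All 6 values were below the median level. The dimmest probe set of GLRA3 was at 2.38, 2.46 and 2.58 in endosulfan arrays, against 2.28, 2.19 and 2.21 in control arrays, and its level of 2.35 was near that of background probes with 9 G or C bases, at 2.34.

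The GLRB probe sets did not move alike. The third in brightness read 3.15, 3.73 and 3.12 in endosulfan arrays 1 to 3, against 4.06, 3.81 and 3.75 in control arrays 1 to 3, which gives a log2 difference of -0.54 ± 0.18 (SE) with a limma adjusted p of 0.249. Endosulfan 2 lay just below the lowest control array. The brightest probe set of the same gene averaged 4.62 ± 0.13 in endosulfan and 4.60 ± 0.11 in control arrays (log2, SD, n = 3 each), and its log2 fold change was 0.02, with the remaining pair at 0.00 and 0.19. A dim probe set of GABRA2 lay higher, at 3.04, 2.85 and 2.93 in endosulfan arrays, against 2.70, 2.63 and 2.67 in control arrays, with a limma adjusted p of 0.278, and its other probe sets had log2 fold changes of 0.17 and 0.15.

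ABAT was the member with the smallest p. Its brighter probe set read 6.62, 6.83 and 6.51 in endosulfan arrays 1 to 3, against 7.64, 7.14 and 7.08 in control arrays 1 to 3. Every endosulfan array lay below every control array, with control 1 standing highest. The means were 6.65 ± 0.16 in endosulfan and 7.29 ± 0.30 in control arrays (log2, SD, n = 3 each), so the level in control arrays was 1.55-fold that in endosulfan arrays, with a log2 fold change of -0.64 ± 0.17 (SE), a 95% interval from -1.03 to -0.25 and a limma adjusted p of 0.215. The second ABAT probe set, also above the median, did not show this. It read 5.80, 5.74 and 5.60 in endosulfan arrays, against 5.43, 5.65 and 5.76 in control arrays, a log2 fold change of 0.10 with a 95% interval from -0.18 to 0.38. With the mean of both probe sets the log2 fold change of ABAT was -0.27, and the spike-in covariate left the brighter one at -0.45.

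GPHN was the 1 member lower on all of its probe sets with groups that did not overlap. The brighter read 4.95, 5.33 and 4.97 in endosulfan arrays 1 to 3, against 6.22, 5.39 and 5.51 in control arrays 1 to 3. The dimmer read 3.95, 3.90 and 3.91 in endosulfan arrays, against 4.68, 4.29 and 4.17 in control arrays. Control 1 was highest on both, and endosulfan 2 and control 2 nearly met on the brighter. The log2 fold changes were -0.62 ± 0.23 (SE) and -0.46 ± 0.14 (SE), with 95% intervals from -1.15 to -0.10 and from -0.79 to -0.13 and limma adjusted p of 0.271 and 0.235. Without control replicate 1 they were -0.37 and -0.31, and in the fit with the spike-in covariate -0.30 and -0.40. In cell populations such as these, fewer cells that express a gene and less RNA per cell cannot be told apart.

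**Figure D3:**
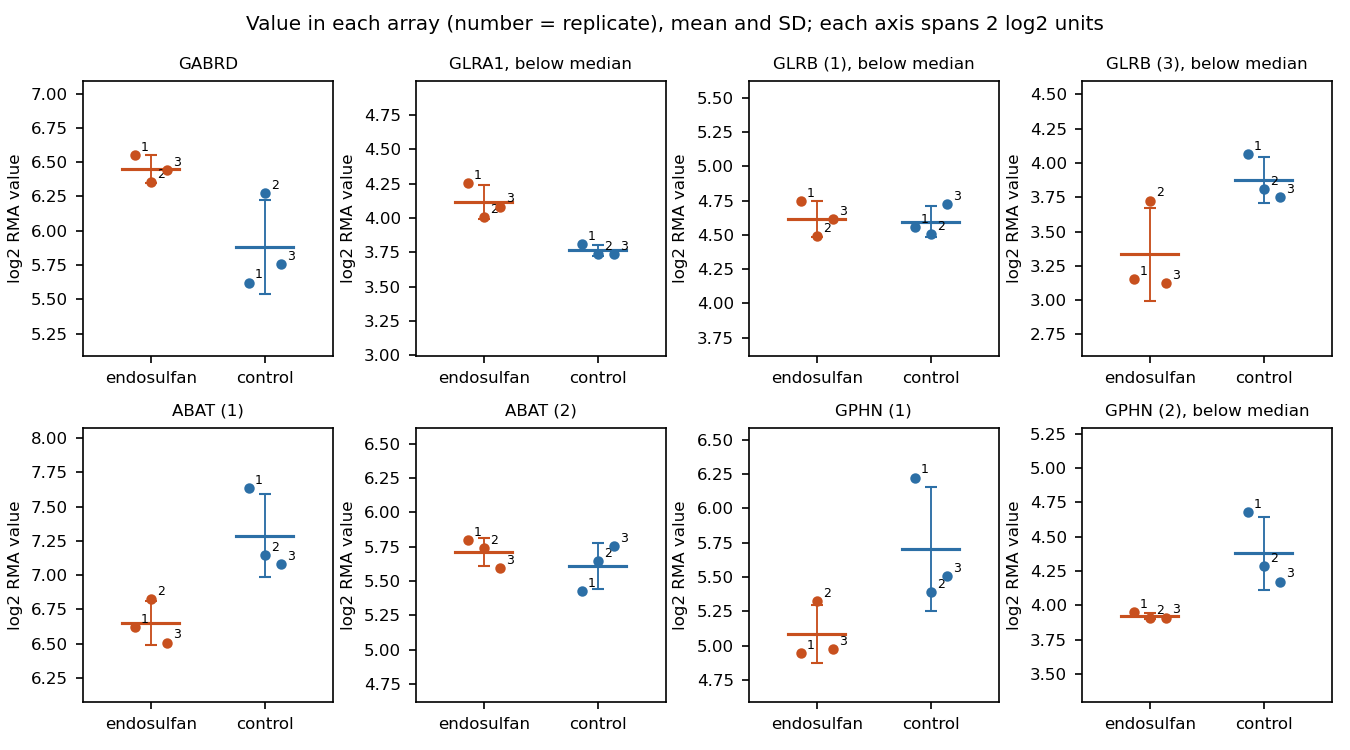
Log2 RMA values of 8 member probe sets in each array, endosulfan left and control right, with the replicate number beside each point, the mean as a horizontal line and the SD as a bar; every panel spans the same range of 2 log2 units. The groups do not overlap in GABRD, GLRA1, the third GLRB probe set, the brighter ABAT probe set and both GPHN probe sets, and they overlap in the brightest GLRB and the second ABAT probe set.

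For the type B receptor, the 95% intervals of all differences ran from negative to positive values. The 3 GABBR1 probe sets had log2 fold changes of -0.15, -0.03 and 0.01, with 95% intervals from -0.43 to 0.12, from -0.39 to 0.32 and from -0.38 to 0.39. Those of GABBR2 were 0.09 and 0.02. GAD1 and GAD2 ran from -0.06 to 0.22, and SLC32A1 was at 0.01 and 0.20. GABRA3, GABRE and GABRQ, the neighbouring subunits near or above the median, were at -0.03, 0.06 and 0.10 on their brightest probe sets, with 95% intervals that reach no further than -0.29 and 0.33.

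Groups without overlap, endosulfan higher, were those of 1 probe set each of GABRA2, GABRB1, GABRB2, GABRD, GABRP, GABRQ, GLRA1 and GLRB and of a pair each of GLRA3 and GAD1. GABRG3, a gamma subunit, read 3.95, 3.67 and 3.41 in endosulfan arrays, against 3.36, 3.41 and 3.46 in control arrays, a log2 fold change of 0.27 with a 95% interval from -0.07 to 0.61. Its groups overlapped, and endosulfan 1 stood apart from the other arrays. GABRP, first described in reproductive tissue, read 4.25, 4.20 and 4.37 in endosulfan arrays, against 4.15, 3.86 and 4.14 in control arrays on its brighter probe set. The endosulfan arrays were higher by a small margin. The log2 fold changes of the 4 probe sets of GABRR1 ran from -0.16 to 0.24, and those of GABRR2 and GABRR3 from -0.07 to 0.14. Among the 34 probe sets of GABA-gated subunits, 28 were on the higher side, or 82.4%, with a median log2 fold change of 0.09. Beside this, 60.1% of all probe sets were on that side, with a median of 0.05. Among all probe sets not above the median level the share was 63.7%, and most of the 34 lay at such levels.

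Set against all probe sets of like level, 5 of the 62 members lay outside the central 90% of log2 fold changes. By construction 5% of all probe sets lie above this band and 5% below it. The share of members outside was no larger than that of all probe sets. GABRD, GLRA1, the second GABRA2 and the dimmest GLRA3 probe set were above the 95th percentile of their level bin, and the third GLRB probe set was below the 5th. ABAT and GPHN lay inside the band, since the band reached further down at their levels. The dimmer GPHN probe set was only just inside, with a log2 fold change of -0.46 against a 5th percentile of -0.47 in its level bin.

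**Figure D4:**
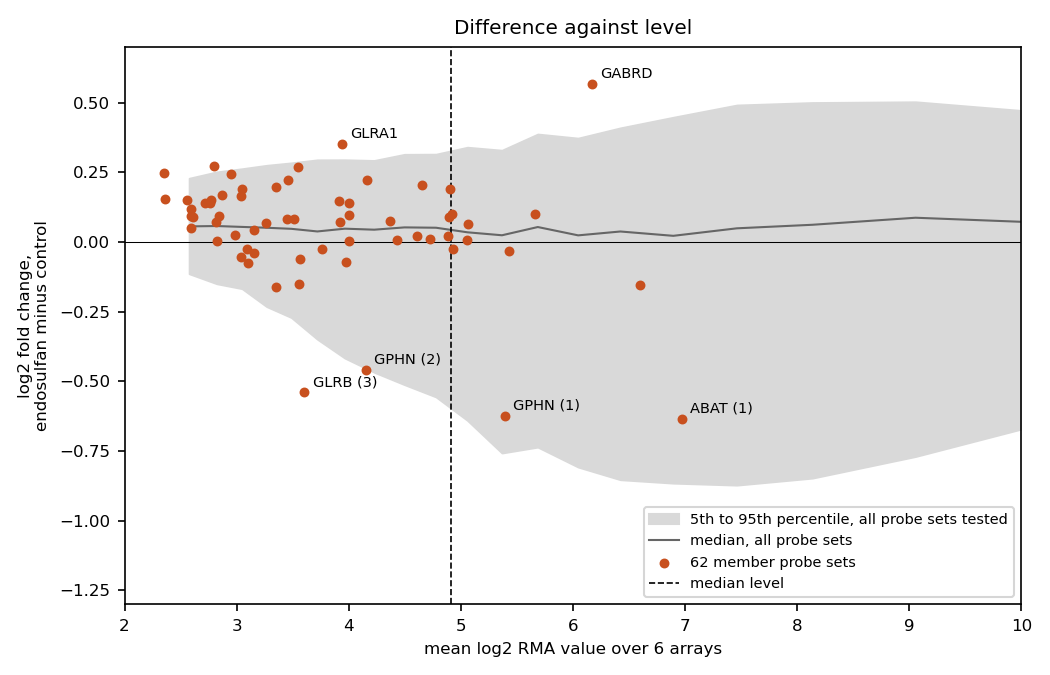
Log2 fold change, endosulfan minus control, against the mean log2 RMA value over 6 arrays. The grey band runs from the 5th to the 95th percentile of all 49293 probe sets in 20 bins of level and the grey line is their median. The 62 member probe sets are orange. The lower edge of the band falls with level over most of the range and rises again at the brightest levels. The dashed line is the median level. By level bin ABAT and GPHN lie within the band, with the dimmer GPHN probe set at its edge.

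The promoters of ABAT and GPHN, whose brighter probe sets had the most negative log2 fold changes of the members, are shown with motifs of EGR1 and FOS. EGR1 and FOS were the genes that passed the test in these arrays. ABAT and GPHN did not pass it, and a link of either to EGR1 or FOS was not tested. Across all probe sets 4 passed with limma and Benjamini-Hochberg adjustment, 3 of EGR1 with log2 fold changes of 1.48 to 1.74 and 1 of FOS at 2.72, with adjusted p from 0.00913 to 0.0277. No probe set passed with the replicate block, without moderation, with the spike-in covariate or in 4 of the 6 fits that leave out 1 array. EGR1 binds GC-rich sites of the form GCGNGGGCG, and FOS is part of AP-1, whose sites read TGANTCA. In the RefSeq promoter table of build GRCh38.p14, 24 of the 27 genes had 33 start sites, and the 250 bases before each start were searched on both strands for the EGR motif and for the AP-1 motif, neither of which contains the other. The EGR motif stood in 4 of the 33 member promoters, or 12.1%, beside 8.42% of all 35116, namely in GPHN, GABRE, GLRB and GAD2. The AP-1 motif stood in 1, that of GABRR3, or 3.03%, beside 6.57% of all. GPHN has 1 start in the table and ABAT 4, of which the first is shown. Both sequences are on the plus strand and end at the base before the start, GPHN at chr14:66507897-66508146 and ABAT at chr16:8674367-8674616. Capitals mark the EGR motif, read on the opposite strand, 30 bases before the GPHN start, and the ABAT stretch holds no match. A match to these letters is a description of the sequence and not a binding site.

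GPHN: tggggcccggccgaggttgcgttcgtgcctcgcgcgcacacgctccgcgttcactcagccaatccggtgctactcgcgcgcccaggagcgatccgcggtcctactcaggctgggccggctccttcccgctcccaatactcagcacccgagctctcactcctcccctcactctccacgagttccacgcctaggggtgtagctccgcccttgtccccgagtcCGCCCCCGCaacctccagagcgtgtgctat
ABAT: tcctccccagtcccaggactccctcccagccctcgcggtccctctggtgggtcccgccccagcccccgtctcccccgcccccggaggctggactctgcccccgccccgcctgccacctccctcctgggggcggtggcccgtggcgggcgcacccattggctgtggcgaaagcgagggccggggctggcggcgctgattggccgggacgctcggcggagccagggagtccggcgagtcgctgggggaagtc

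The wider pathway also held no call, although its genes lay above the median level more often. A list of 48 partners, of which 43 had probe sets, covered receptor trafficking, type B receptor auxiliary subunits, GABA and glycine uptake, their metabolism, chloride transport and the molybdenum cofactor enzymes that work with gephyrin. Of its 167 probe sets, 110 lay above the median level, or 65.9%. With limma 0 of the 167 passed at an adjusted p below 0.05, beside 0.00811% of all probe sets, so this count says little about the partners. At an unadjusted limma p below 0.05 there were 6 higher and 8 lower, in all 8.38%, beside 15.5% of all probe sets. The median log2 fold change of the partners was 0.06. Of the 8 lower ones, 6 were among the 65 probe sets of the trafficking genes, or 9.23%, beside 9.21% of all probe sets.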

How the data were processed

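SH-SY5Y RNA was measured on 6 arrays, 3 endosulfan and 3 control. Per the submitters' processing notes the authors deposited log2 values made with Affymetrix Expression Console and RMA, which corrects background, equalises array quantiles and summarises probes per probe set, so a shift shared by most transcripts is removed. Tool versions, options or filtering: not given in the sources used here. Of 49395 rows, 102 array controls were set aside. The other 49293 probe sets (44988 naming 1 gene by the platform annotation) were fitted with limma 3.58.1 in R 4.3.3 (lmFit, eBayes, two-sided, Benjamini-Hochberg over all), without a filter. Figures used matplotlib 3.10.9. The fit was tested on simulated data. Gene IDs of all 27 members matched RefSeq.

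Groups came from the labels' agent field. The members and lists were chosen with earlier results of these data known. Each member gene with a probe set above the median level, and each member probe set with an unadjusted p below 0.05 or with non-overlapping groups and at least 1.5-fold, is given array by array; others are named where their values describe a role. Genes that are no members are named with values only at an adjusted p below 0.05; the cell line markers are given as ranges, with 3 exceptions stated there. Alternatives were the replicate block, normalization, moderation, array weights, the spike-in covariate, gene level summaries, the level threshold and leaving out each array. Depth does not apply to arrays.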

Additional observations from a re-analysis of the deposited data

Results flagged for a closer look

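The spike-in and hybridisation control probe sets, which were not among the probe sets tested, are given because their signal was higher in the exposed group. The spike-ins entered only the alternative fit with a covariate. The poly-A spike-ins averaged 8.11 ± 0.60 in endosulfan and 6.57 ± 1.02 in control arrays (log2, SD, n = 3 each), a difference of 1.55, and the groups overlapped through control 2. The hybridisation controls, added after labelling, averaged 10.70 ± 0.19 in endosulfan and 10.05 ± 0.29 in control arrays (log2, SD, n = 3 each), a difference of 0.644. They read 10.62, 10.56 and 10.91 in endosulfan arrays 1 to 3, against 9.98, 10.38 and 9.80 in control arrays. These groups did not overlap, and control 2 lay below every endosulfan array. Groups of 3 arrays are too small to look for a lone outlying array.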

How the results depend on the processing

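In every alternative run except limma's array weights, 0 members passed the adjusted threshold, beside at most 0.0162% of all probe sets or genes. With so few calls on the whole array, this count says little about the members. In the fit with array weights endosulfan 3 had a weight of 5.43, control 3 of 2.20 and the others at most 0.85. There 8 members and 16 partner probe sets were called, with 14.4% of all probe sets called, and 15 members had an unadjusted p below 0.05, or 24.2%, beside 32.7% of all. The 8 were ABAT, GABRD, GLRA1, 1 probe set each of GABRA2, GLRA3 and GLRB, and both of GPHN. With the spike-in covariate 0 members had an unadjusted p below 0.05, beside 2.03% of all, in a limma fit with fewer residual degrees of freedom. With the probe sets above the median alone, 10 members were left, of which 3 had an unadjusted p below 0.05 (all such probe sets 19.4%) and 4 did not overlap (all 25.3%), with a median log2 fold change of -0.0089. At gene level, over 27 genes, 4 and 8 did so with the brightest probe set (all genes 17.1% and 22.6%) and 4 and 9 with the mean (16.9% and 22.6%). With 1 array left out, members at an unadjusted p below 0.05 numbered 5 to 8 (all probe sets 8.86% to 19.7%), non-overlapping ones 18 to 29 (26.4% to 43.2%), members called 0, the median log2 fold change 0.05 to 0.13, probe sets above the median 9 to 12 and genes 6 to 9. Probe sets and genes above the line were 3 and 3 against the median of the brightest probe sets and 1 and 1 against the upper quartile.

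Among the 15 probe sets followed through the alternatives, signs turned in 6, whose log2 fold changes in the fit to all arrays lay between -0.15 and 0.10. With the spike-in covariate the log2 fold changes were 0.036 for GABRA3, -0.045 for GABRE and 0.019 and 0.14 for the first and second GABBR1 probe sets, and the second was at 0.011 after a further quantile normalization. With array weights the third GABBR1 probe set was at -0.24 and the second ABAT probe set at -0.071. With 1 array left out, GABRA3 ran from -0.092 to 0.051, the second GABBR1 probe set from -0.14 to 0.10 and the third from -0.12 to 0.18. The cause was not tested.

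With the replicate number as a block, 0 members and 0 of all probe sets passed. In that limma fit 6 members had an unadjusted p below 0.05, or 9.68%, beside 9.48% of all, and the adjusted p of ABAT was 0.524. Deviations of same-numbered arrays from their group means correlated at -0.51, -0.40 and 0.05. With 3 arrays per group such values constrain each other, so they cannot decide whether same-numbered arrays shared a culture or day. The labels do not say, and pairing remains unknown.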
